A study of Mus musculus with 203 samples.

Results

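The synaptic vesicle release machinery was followed as 45 genes, named by function and not by their measured values: SNARE proteins and their recycling factors, synaptotagmins, complexins, synapsins and other vesicle proteins, Rab3 with its effectors, and active zone proteins. All 45 were rows of the count table, among 24029 genes in all. The neurons were single cholinergic neurons of the nucleus ambiguus of wild type C57BL/6 mice (substrain C57BL/6NCrl in the study's methods), aspirated from brainstem slices at postnatal day 2 to 4 and sequenced by Smart-seq2. Cholera toxin B tracer had been placed around the heart for the cardiac neurons and in the cricothyroid muscle of the larynx for 52 laryngeal neurons. The deposited annotation divided the cardiac neurons into 53 ACP and 98 ACV neurons, and the laryngeal neurons are called Larynx. Tracer was given by surgery under hypothermia with buprenorphine, at a different site in cardiac and laryngeal mice, so neuron type and surgery cannot be told apart in comparisons with Larynx. All mice were wild type.

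At a chemical synapse, vesicles filled with transmitter are docked and primed at the active zone and fuse when calcium enters. The vesicle SNARE synaptobrevin (Vamp genes) zips up with the plasma membrane SNAREs syntaxin 1 and SNAP-25, synaptotagmins sense calcium, and complexins hold and promote the assembled complex. Most of these proteins exist as paralogs, and motor neurons of the spinal cord and brainstem are known for release at neuromuscular junctions, where synaptotagmin 2 and VAMP1 have been well studied. Laryngeal motor neurons contact striated muscle directly, whereas cardiac neurons of the nucleus ambiguus are preganglionic and contact neurons of the cardiac ganglia. In the study, ACP (ambiguus cardiopulmonary) neurons also innervated ganglia of the lung, while ACV (ambiguus cardiovascular) neurons rarely did.

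The 45 genes together took nearly the same share of each type's mRNA, while the choice between paralogs differed. Laryngeal neurons had over 2-fold more Syt2, Vamp1 and Sv2b than either cardiac type. Both cardiac types had over 2-fold more Syt5 than laryngeal neurons, but ACV neurons by only 2.02-fold. ACP neurons had over 2-fold more Syt4 than laryngeal neurons. ACV neurons had over 2-fold less Sv2b than both other types and over 2-fold more Cplx2 than laryngeal neurons. Cplx1 (higher in Larynx) and Snap25 (higher in ACV) differed by less than 2-fold. Levels are given as counts per 1000000 counts outside Rn45s (CPM). Rn45s, a ribosomal RNA precursor, took a median of 34.3% of the counts in ACP, 35.9% in ACV and 58.6% in Larynx neurons, and was left out of the totals. Counts outside Rn45s ran from 118492 to 2396541 a neuron, with medians of 1115375 in ACP, 1120512 in ACV and 560892 in Larynx neurons. No source names the mouse or plate of a neuron, and ACP and ACV were drawn from these same expression profiles. Each type therefore counted as 1 sample, and no test or p-value could be given. SDs describe the spread over neurons, and a difference is read against a 2-fold ratio of means.

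Levels of marker genes of each type are given as a description, since ACP and ACV were drawn from these same profiles. Calca and Calcb together had a median of 2073 CPM in Larynx neurons and of 29.6 CPM in ACP and 27.1 CPM in ACV neurons. Pappa2 and Calb1 together had a median of 391.4 CPM in ACP neurons and 0 in ACV neurons, and Hoxa5 and Bche together 483.3 CPM in ACV and 9.16 CPM in ACP neurons. Tbx3, the cardiac marker, had medians of 54.1 CPM in ACP, 36.8 CPM in ACV and 0 in Larynx neurons. All 8 cholinergic motor neuron markers had a count in 50% or more of the neurons of each type. Markers of other cells were detected too. Summed astrocyte markers (8 genes) had medians of 2226, 2490 and 3294 CPM in ACP, ACV and Larynx neurons, with a highest neuron of 31990 CPM in ACV. Of these genes, Aldoc (means of 969.1, 983.2 and 1572 CPM) and Sparcl1 (290.5, 397.1 and 580.8 CPM) were highest in Larynx. By means, Gja1, Aqp4, Slc1a3, Slc1a2 and Gfap were lowest in Larynx, and Apoe there lay between the cardiac types. A set of 6 markers of non-cholinergic neurons, among them Gad1, Gad2 and Slc17a6, had summed medians of 55.8, 47.7 and 243.3 CPM. Microglial (8 genes), oligodendrocyte lineage (9 genes) and vascular markers (6 genes) had summed medians of at most 102.8, 203.6 and 4.33 CPM in any type. Single neurons were far higher, up to 7870 CPM (ACV), 8234 CPM (ACV) and 8197 CPM (Larynx) in the same order.

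The promoters of Syt2, Vamp1, Sv2b and Cplx1 are shown because these members were higher in laryngeal neurons, Cplx1 by less than 2-fold. Each run is the 250 bases before the RefSeq start of the gene (of several, as in Syt2 and Sv2b, the most upstream), on the gene's strand, in GRCm38.p6, with GC boxes (GGGCGG on either strand) in capitals. The windows lie at chr1:134646362-134646611 (Syt2, + strand), chr6:125215331-125215580 (Vamp1, + strand), chr7:75309263-75309512 (Sv2b, - strand) and chr5:108550028-108550277 (Cplx1, - strand).
Syt2: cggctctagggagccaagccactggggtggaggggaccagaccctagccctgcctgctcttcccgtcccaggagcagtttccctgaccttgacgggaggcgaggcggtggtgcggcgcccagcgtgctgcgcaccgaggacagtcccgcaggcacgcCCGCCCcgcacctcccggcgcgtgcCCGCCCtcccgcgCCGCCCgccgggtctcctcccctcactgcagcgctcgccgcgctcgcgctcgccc
Vamp1: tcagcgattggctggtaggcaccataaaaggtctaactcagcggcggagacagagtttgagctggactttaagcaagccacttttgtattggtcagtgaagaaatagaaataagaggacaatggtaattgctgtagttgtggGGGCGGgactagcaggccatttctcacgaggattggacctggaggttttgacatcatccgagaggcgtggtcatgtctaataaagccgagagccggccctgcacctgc
Sv2b: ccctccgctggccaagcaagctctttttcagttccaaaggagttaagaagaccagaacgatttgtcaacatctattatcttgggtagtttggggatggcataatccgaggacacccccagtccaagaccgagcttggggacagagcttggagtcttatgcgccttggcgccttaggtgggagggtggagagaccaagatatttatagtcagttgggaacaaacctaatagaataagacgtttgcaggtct
Cplx1: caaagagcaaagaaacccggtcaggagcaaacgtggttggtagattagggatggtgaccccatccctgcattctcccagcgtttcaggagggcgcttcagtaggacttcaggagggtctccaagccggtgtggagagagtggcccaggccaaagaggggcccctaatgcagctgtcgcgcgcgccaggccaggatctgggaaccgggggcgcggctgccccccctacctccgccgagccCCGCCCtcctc

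The Syt2 window held 3 GC boxes and was 76% G and C, the Vamp1 and Cplx1 windows held 1 box each at 50.4% and 64.8%, and the Sv2b window held none at 48.8%. Of all 32851 such windows 32.7% held a GC box, against 28 of the 45 windows (62.2%) found for 34 of the members, whose median G and C content was 61.2% against 52.4% for all windows. The core homeodomain letters TAATTA occurred in 1 member window (Syt6, 2.22%) and in 4.84% of all windows. The E box CACGTG occurred in 7 member windows (15.6%) and in 6.02% of all windows. A match of letters is not a binding site.

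The summed level of the 45 genes was 11611 ± 2596 CPM in ACP (SD, n = 53 neurons), 11739 ± 2594 CPM in ACV (n = 98) and 11409 ± 2027 CPM in Larynx neurons (n = 52). The medians were 11281, 12057 and 11580 CPM, and the lowest and highest neurons were 6303 and 19974 CPM in ACP, 5051 and 16787 CPM in ACV, and 5001 and 14897 CPM in Larynx. The 3 types overlapped over almost their whole ranges, and their means differed by much less than 1 SD. Release genes thus made up 1.16%, 1.17% and 1.14% of the counts outside Rn45s. When Rn45s was kept in the totals the means became 7275, 7369 and 4867 CPM, so the equality of Larynx with the cardiac types holds only for totals without Rn45s. Within a type, the summed level fell with the Rn45s share in ACV (Spearman's rho = -0.37) and Larynx neurons (-0.32) but not in ACP neurons (0.07), with all counts of a neuron shared by both measures.

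**Figure D1:**
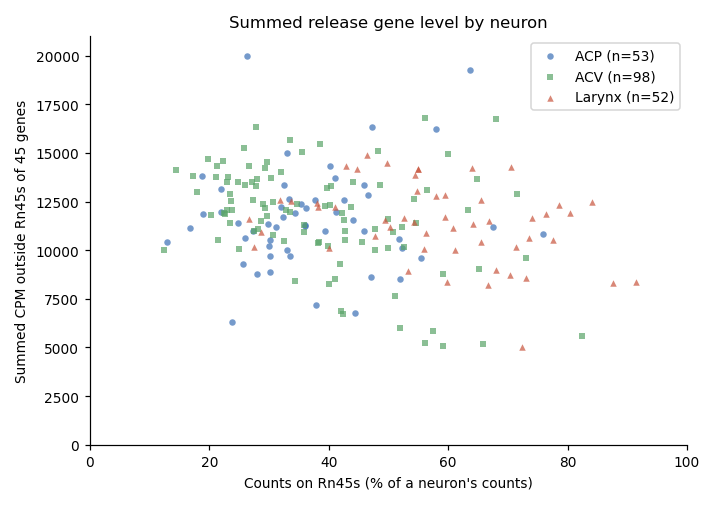
Summed level of the 45 release genes (CPM outside Rn45s, y axis) in each neuron against the percent of its counts on Rn45s (x axis), by type. The 3 types lie at the same height, with means of 11611, 11739 and 11409 CPM, while Larynx neurons lie further to the right.

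Subgroups differed more than the whole. The 7 SNARE and SNARE recycling genes summed to 3775 ± 1364 CPM in ACV neurons, 2912 ± 1054 CPM in ACP and 3048 ± 1138 CPM in Larynx neurons. Complexins and Doc2 genes were highest in Larynx neurons, at 915.9 ± 404.9 CPM against 640.9 ± 266 CPM in ACP and 724.5 ± 359.9 CPM in ACV neurons. Synaptotagmins summed to 3740 ± 2331, 3180 ± 1396 and 3072 ± 1479 CPM in ACP, ACV and Larynx neurons. The vesicle membrane group (2202, 1970 and 2304 CPM), Rab3 and its effectors (1510, 1534 and 1472 CPM) and the active zone group (605.5, 556.4 and 597.7 CPM) were level. These gaps were smaller than the SD of the neurons or, for complexins and Doc2 genes between ACP and Larynx, close to it.

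Expression was concentrated in few genes. Syt11, Syt1 and Snap25 gave 30.1% of the members' summed mean level in ACP neurons and, in another order, 33.1% in ACV neurons, and Syt11, Snap25 and Rab3a gave 26.7% in Larynx neurons. Per kilobase of the exons of all transcripts, Rab3a, the vesicle GTPase, was at the top in ACP (347 CPM per kb) and ACV neurons (353.3 CPM per kb). In Larynx neurons Cplx1 (337.5 CPM per kb) and Rab3a (333.3 CPM per kb) shared the top. Syt11, a synaptotagmin that does not bind calcium, followed at 280.5, 274.3 and 243.6 CPM per kb in ACP, ACV and Larynx neurons. The active zone scaffolds Bsn (4.27 to 4.51 CPM per kb) and Pclo (8.42 to 12.1 CPM per kb) and the priming factor Unc13a (4.26 to 5.53 CPM per kb) were far lower in every type. The order at the top depended on the length used. Per kilobase of the longest coding transcript, an alternative added after the data were seen, Snap25 led in ACV (777.3 CPM per kb, against 505.4 for Rab3a) and Larynx neurons (491.9, against 476.9 for Rab3a and 337.5 for Cplx1), and Rab3a in ACP neurons (496.4, against 476.3 for Snap25). Vamp1 is another gene whose merged exons (10167 bases) are much longer than its longest coding transcript (3011 bases).

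**Figure D2:**
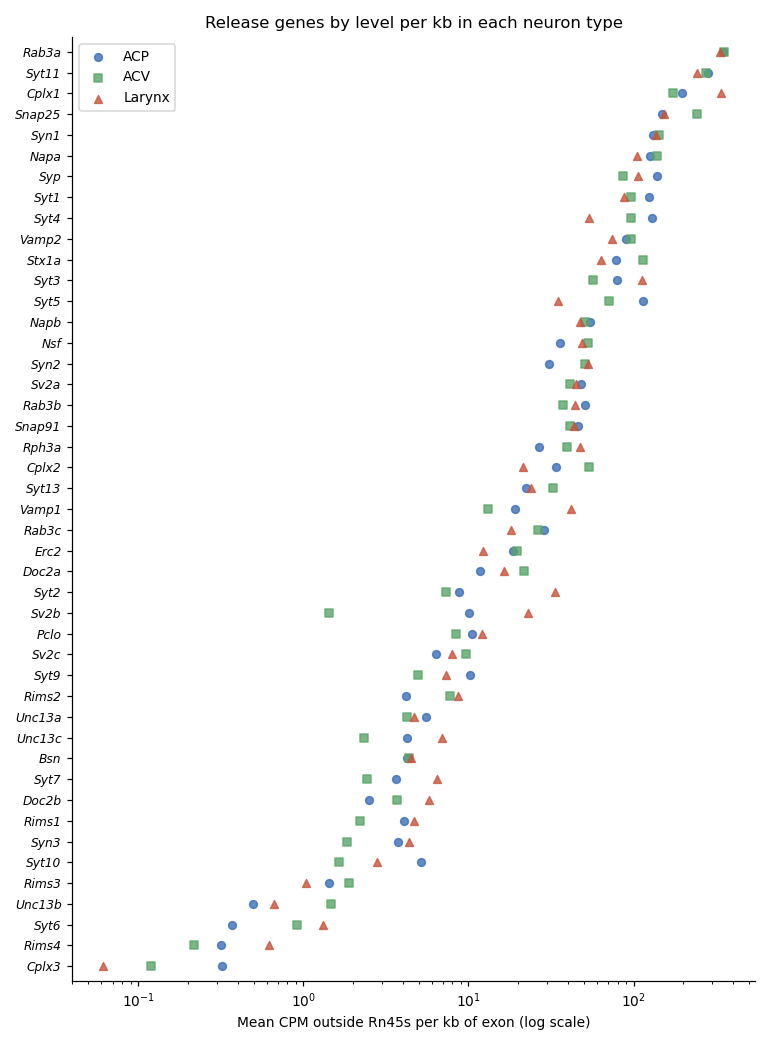
Mean level of each member per kilobase of exon (CPM outside Rn45s per kb, log scale, x axis) in ACP, ACV and Larynx neurons. Members are ordered by their mean over the types, from Rab3a at 333.3 to 353.3 CPM per kb down to Cplx3 (lengths are merged exons of all transcripts), and the widest gap between types is at Sv2b.

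Snap25, Syt1, Syt4, Syt11, Syn1 and Snap91 had a count in every neuron, and 21 members were detected in 90% or more of each type's neurons. Syt6, Syt10, Cplx3, Rims3, Rims4 and Unc13b were detected in under 50% of the neurons of each type. Cplx3, a complexin of ribbon synapses in the retina, had counts in 1 neuron of each type and was too sparse for any comparison. After each neuron was thinned to 200000 counts, which left out 3 Larynx neurons, the number of members detected had a median of 36 in ACP, 34 in ACV and 36 in Larynx neurons, and ranged from 22 to 43. Without thinning the medians were 38, 36 and 37.

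For the comparisons, 44 members had a count in 10% or more of either type's neurons, the exception being Cplx3. Fold changes are log2 ratios of mean levels after adding 1 CPM. Their median was 0.12 for ACP over ACV, -0.07 for ACP over Larynx and -0.07 for ACV over Larynx, against 0.00, -0.03 and -0.02 over all genes compared. The median size of the change was 0.53, 0.45 and 0.53 among members and 0.35, 0.43 and 0.47 among all genes.

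Between Larynx and ACV neurons 7 members were over 2-fold higher in Larynx, 15.9% of those compared against 11.8% of all genes: Vamp1, Syt2, Syt7, Syn3, Sv2b, Rims1 and Unc13c. In the other direction 3 members were over 2-fold higher in ACV (6.82%, against 7.87% of all genes): Syt5, Cplx2 and Unc13b. Between Larynx and ACP neurons 6 members were higher in Larynx (13.6%, against 10.1%): Vamp1, Syt2, Syt6, Doc2b, Sv2b and Rims2. Syt4 and Syt5 were over 2-fold higher in ACP (4.55%, against 8.09%). Between the cardiac types Syt9, Syt10, Syn3 and Sv2b were over 2-fold higher in ACP (9.09%, against 7.55%), and Syt6 and Unc13b in ACV (4.55%, against 6.31%). These shares are near the background, so by the 2-fold mark the machinery as a whole was not set apart by how many of its genes differed. The direction depended on Rn45s. With Rn45s in the totals, 10 members were over 2-fold higher in ACV than Larynx (against 18.5% of all genes). In the other direction there were 4 (against 4.52%). Between ACP and Larynx, 7 were higher in ACP (against 19.6%) and 1 in Larynx (against 3.02%). The median log2 fold of all genes was 0.45 for ACV and 0.52 for ACP over Larynx, in place of -0.02 and -0.03.

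A ratio of means can rest on a few neurons, so the share of all neuron pairs in which 1 type was higher was taken as well (ties counted as 0.5). At least 75% of pairs were higher in Larynx than ACV for Vamp1, Syt2, Syt3, Cplx1 and Sv2b, which is 11.4% of the members compared against 0.955% of all genes. The same held in ACV over Larynx for Syt4 and Cplx2 (4.55%, against 0.707%), in ACP over Larynx for Syt4 and Syt5 (4.55%, against 0.702%) and in Larynx over ACP for Vamp1 and Syt2 (4.55%, against 0.445%). Sv2b alone reached it in ACP over ACV (2.27%, against 0.636%), and no member did in ACV over ACP, where 0.329% of all genes did. These shares were above those of all genes in each direction except ACV over ACP, whereas the 2-fold shares were near them. The members were not matched with other genes on level here, and the 75% mark was chosen after the values were seen.

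**Figure D3:**
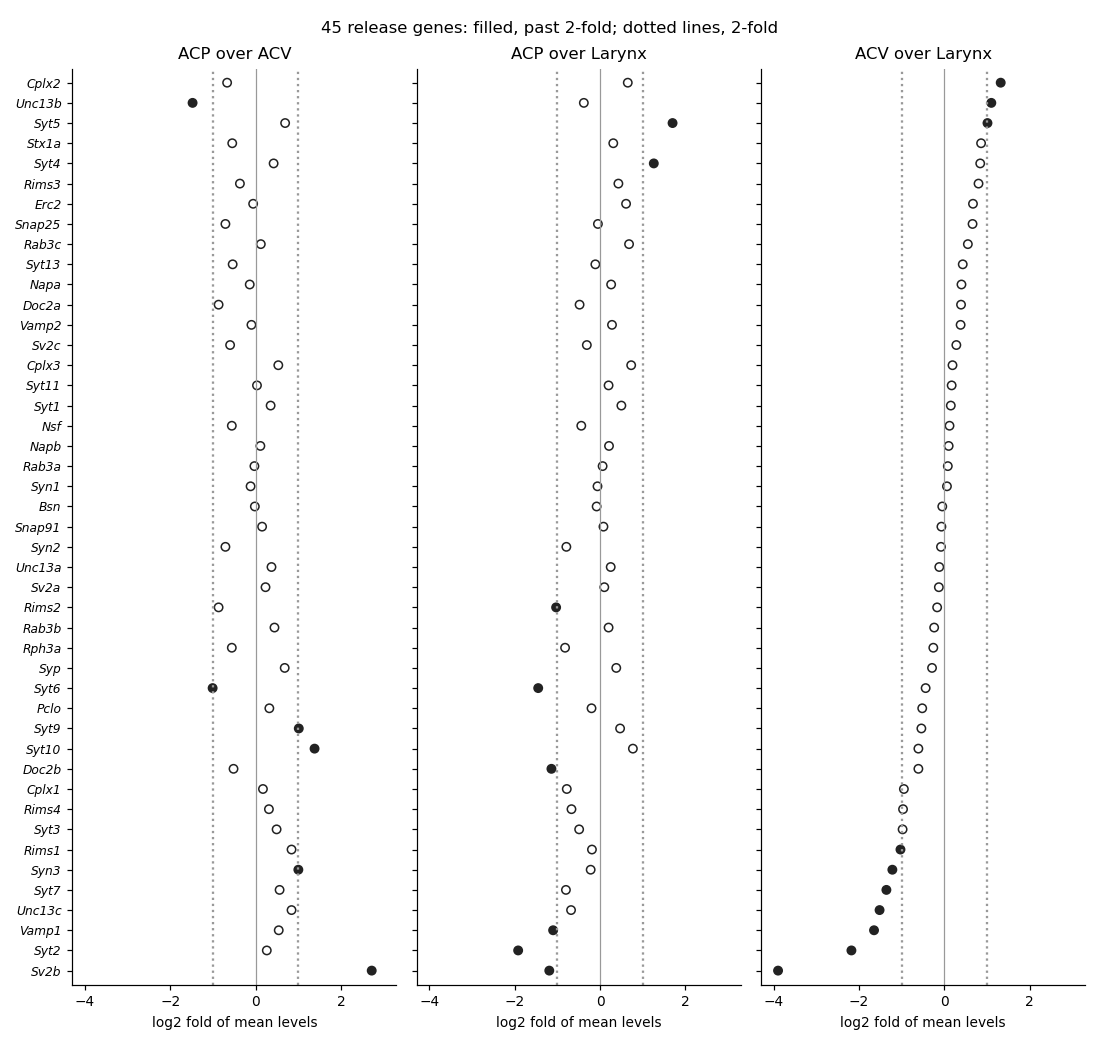
Log2 fold of the mean levels (x axis) of the 45 members in ACP over ACV, ACP over Larynx and ACV over Larynx, with members ordered by the last. Filled points are past 2-fold (dotted lines), and Sv2b, at 2.72, -1.19 and -3.90, has the widest range. The 3 comparisons share their neurons.

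Among calcium sensors for fast release, Syt1 was the main gene in every type. Its level ran from 58.7 to 6650 CPM in ACP (median 619.4), from 150.1 to 2775 CPM in ACV (median 692.8) and from 16.9 to 2372 CPM in Larynx neurons (median 672.5), and the types overlapped. Its paralog Syt2 ran from 0 to 465.7 CPM in ACP (median 21.8), from 0 to 516.5 CPM in ACV (median 30.1) and from 0 to 977.3 CPM in Larynx neurons (median 200.3). Syt2 was thus low in most cardiac neurons and high in most laryngeal ones, although the ranges overlapped. The mean was 255.8 ± 227.3 CPM in Larynx, 67.1 ± 96.9 CPM in ACP and 55.8 ± 74.3 CPM in ACV neurons, a log2 fold of -1.92 for ACP and -2.18 for ACV over Larynx. In neurons with at least 20 counts on the pair, Syt2 made up 26% ± 18.3 of the pair per kilobase in Larynx neurons (n = 51), 6.77% ± 9.45 in ACP (n = 53) and 6.47% ± 6.77 in ACV (n = 98). It was the majority in 4 of 51 laryngeal, 1 of 53 ACP and 0 of 98 ACV neurons.

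Vamp1 and Vamp2 encode the vesicle SNARE. Vamp1 ran from 0 to 706.5 CPM in ACP (median 163.4), from 0 to 1017 CPM in ACV (median 96.6) and from 0 to 1125 CPM in Larynx neurons (median 384.8). Laryngeal neurons were on the high side, with 83.99% of ACV and Larynx pairs and 75% of ACP and Larynx pairs higher in Larynx. The log2 fold was -1.65 for ACV and -1.10 for ACP over Larynx, the latter being -0.61 with Rn45s in the totals. Vamp2, by contrast, had means of 340.7 ± 156.3, 365.8 ± 183.9 and 280.9 ± 130.9 CPM in ACP, ACV and Larynx neurons, within 2-fold. Vamp1 made up 35.2% ± 18.6 of the pair per kilobase in Larynx (n = 52), 18.4% ± 16.1 in ACP (n = 53) and 13.4% ± 16.8 in ACV neurons (n = 96). With the length of the longest coding transcript in place of all exons these shares were 48.7%, 28.03% and 20.4%.

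The plasma membrane SNAREs Snap25 and Stx1a were within 2-fold in every comparison. Snap25 was detected in every neuron, with medians of 1072 CPM in ACP (range 81.9 to 2245), 1698 CPM in ACV (22.6 to 3734) and 973 CPM in Larynx neurons (143.5 to 3163). ACV neurons were the higher ones in 74.8% of pairs with ACP and 73.7% of pairs with Larynx neurons, with log2 folds of -0.71 for ACP over ACV, 0.66 for ACV over Larynx and -0.05 for ACP over Larynx. Within each type Snap25 fell as the Rn45s share rose (rho = -0.62, -0.52 and -0.36 in ACP, ACV and Larynx), and its part in the difference from Larynx was not tested. Median Rn45s shares were 34.3% in ACP and 35.9% in ACV neurons, and the part of Rn45s in their Snap25 difference was not tested either. Stx1a had means of 209.1, 306.1 and 168.5 CPM in ACP, ACV and Larynx neurons. The factors that take spent SNARE complexes apart, Nsf (299.2, 442.3 and 405.6 CPM), Napa (474.8, 524.7 and 397.4 CPM) and Napb (384.9, 356.8 and 332.3 CPM), were within 2-fold in all comparisons, and Napb made up 30.5%, 28.96% and 33.5% of the Napa and Napb pair.

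**Figure D4:**
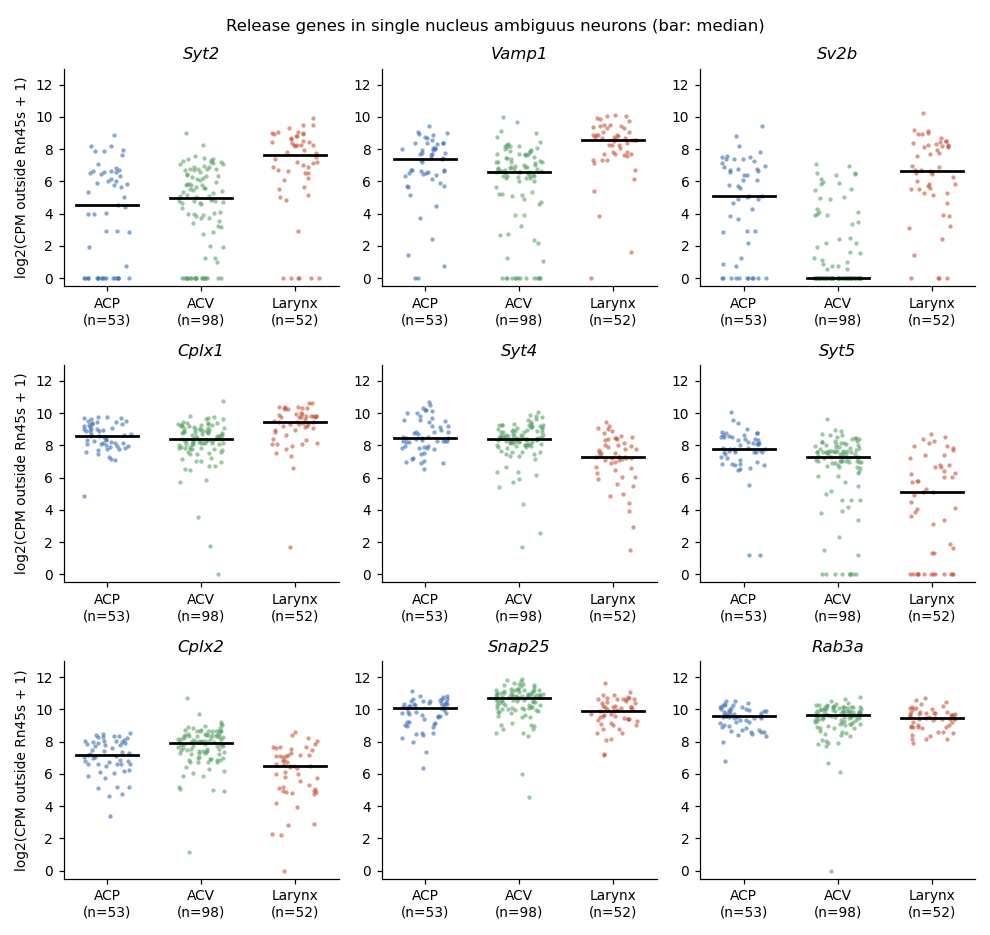
Levels of 9 members as log2(CPM outside Rn45s + 1) in each neuron (points) of the ACP (n = 53), ACV (n = 98) and Larynx (n = 52) types, with the median as a bar. Larynx medians are high for Syt2, Vamp1, Sv2b and Cplx1 and low for Syt4, Syt5 and Cplx2, the ACV median of Sv2b is 0, and Rab3a medians are level.

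Sv2b had the widest difference of any member. SV2 proteins are vesicle glycoproteins that act on release probability and bind synaptotagmin. Sv2b ran from 0 to 132.2 CPM in ACV neurons with a median of 0, from 0 to 695.7 CPM in ACP (median 33.8) and from 0 to 1235 CPM in Larynx neurons (median 100.2). Most ACV neurons had none, most laryngeal neurons had some, and ACP neurons lay between. It was detected in 38 of 98 ACV neurons (38.8%, exact binomial 95% interval 29.1 to 49.2), 42 of 53 ACP neurons (79.2%, 65.9 to 89.2) and 48 of 52 Larynx neurons (92.3%, 81.5 to 97.9), and at 200000 counts a neuron in 28.6%, 67.9% and 93.9%. Summed over neurons, the level was 9.52 CPM in ACV (Poisson 95% interval 8.97 to 10.1), 77.6 CPM in ACP (75.5 to 79.8) and 221.8 CPM in Larynx (216.6 to 227). The Poisson intervals cover counting error only, for reads without molecular identifiers. The binomial intervals cover the number of neurons only and treat them as independent draws, although neurons of a mouse cannot be identified. The log2 fold was 2.72 for ACP over ACV, -3.90 for ACV over Larynx and -1.19 for ACP over Larynx. Among 16 alternatives of scaling, filter and neuron choice, a 1.5-fold mark, no detection filter and a 0.1 CPM pseudocount cannot undo a call. The call between ACV and either other type held under all 16, and the log2 fold for ACV over Larynx ran from -6.66 to -3.54. That between ACP and Larynx did not with Rn45s in the totals (-0.76) or in neurons of at most 900 Apoe counts (-0.97).

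The other 2 SV2 genes did not follow. Sv2a, the widely expressed member, had means of 223.2 ± 216.1, 189.9 ± 175.7 and 208.2 ± 191.8 CPM in ACP, ACV and Larynx neurons. Sv2c had means of 61.7 ± 72.3, 93.8 ± 107.9 and 76.8 ± 102.7 CPM. Per kilobase within a neuron, Sv2b made up 2.62% ± 5.88 of the 3 genes in ACV neurons (n = 96), 15.4% ± 15.6 in ACP (n = 52) and 30.8% ± 25.5 in Larynx neurons (n = 48). Sv2c took 24.1% ± 24.3, 12.7% ± 14.4 and 13% ± 20 in the same order. The exons of Sv2b overlap an RNA gene on the opposite strand over 47 of 8381 bases.

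Complexins differed in opposite directions. Cplx1 ran from 28.1 to 874.9 CPM in ACP (median 385.5), from 0 to 1707 CPM in ACV (median 334.8) and from 2.23 to 1605 CPM in Larynx neurons (median 697.8). It was higher in Larynx in 77.3% of pairs with ACV and 73.8% of pairs with ACP neurons, and its log2 folds (-0.95 and -0.78) lay within 2-fold. Cplx2 ran from 9.27 to 373.5 CPM in ACP (median 145.8), from 1.26 to 1666 CPM in ACV (median 243.9) and from 0 to 381.4 CPM in Larynx neurons (median 88.9). ACV neurons were the highest for Cplx2, with a log2 fold of 1.32 over Larynx and 81.9% of pairs. Cplx1 thus made up 90.7% ± 15.3 of the complexin genes per kilobase in Larynx (n = 52), 83.2% ± 11.1 in ACP (n = 53) and 72.8% ± 16.9 in ACV neurons (n = 98). The share of Cplx1 was higher in the ACV neuron in only 10.8% of ACV and Larynx pairs.

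Synaptotagmins 4 and 5 were lower in laryngeal neurons, over 2-fold in each case except Syt4 against ACV. Syt5, a calcium-binding vesicle synaptotagmin, ran from 1.30 to 1059 CPM in ACP (median 221.7), from 0 to 792.1 CPM in ACV (median 155.6) and from 0 to 412.3 CPM in Larynx neurons (median 33.1). It was detected in every ACP neuron, in 89 of 98 ACV and in 39 of 52 Larynx neurons, and the ranges overlapped. Its log2 fold was 1.70 for ACP over Larynx (84.6% of pairs) and 1.01 for ACV over Larynx (71.01% of pairs). The second is at the 2-fold mark and was 0.89 in neurons with 30 to 60% of counts on Rn45s. It also fell below 2-fold with a pseudocount of 5 CPM, at 500000 counts or more and when thinned to 200000 counts. The lowest value among the alternatives was 0.75. Syt4, a synaptotagmin of dense-core and other vesicles, had means of 500.2 ± 375.6, 373.6 ± 209.2 and 208.5 ± 161.3 CPM in ACP, ACV and Larynx neurons, with log2 folds of 1.26 for ACP and 0.84 for ACV over Larynx and a higher level in 77.9% and 75.04% of pairs. The exons of Syt4 overlap an RNA gene on the opposite strand over 566 bases, and whether counting used strand is not given in the sources used here.

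Syt3, another calcium-binding synaptotagmin, was on the laryngeal side, with medians of 214.3, 153.2 and 297.3 CPM in ACP, ACV and Larynx neurons and a log2 fold of -0.98 for ACV over Larynx. Syt7, a high-affinity sensor for slow and asynchronous release, had medians of 9.20, 5.17 and 17.6 CPM in the same order and a log2 fold of -1.36 for ACV over Larynx, which became -0.49 in neurons with little inhibitory marker RNA. Syt11 (1460, 1428 and 1268 CPM) and Syt13 (83.8, 121.9 and 90.4 CPM) were within 2-fold throughout. Syt6, Syt9 and Syt10 were sparse. Syt10 had counts in 14 of 53 ACP, 8 of 98 ACV and 10 of 52 Larynx neurons, and 1 neuron held 39.8%, 42.3% and 32.1% of the summed level of each type. Syt6 was as uneven (36.9%, 39.6% and 23.7% in 1 neuron), and Syt9 was over 2-fold higher in ACP than ACV by means (40.6 against 19.6 CPM) but in only 56.1% of pairs. Their calls rest on few neurons. Doc2a and Doc2b, soluble calcium sensors for spontaneous release, were low as well. Doc2b had means of 10.9, 16.1 and 25.2 CPM in ACP, ACV and Larynx neurons, and Doc2a 32.9, 61.02 and 46.2 CPM.

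Synapsins tether vesicles to each other and to actin. Syn1 was level in the 3 types (medians of 444, 441.8 and 413.2 CPM). Syn2 was lower in ACP (mean 216.6 CPM) than in ACV (355 CPM, 72.3% of pairs) and Larynx neurons (374.9 CPM), within 2-fold. Syn3 had medians of 23.1, 1.11 and 25.5 CPM in ACP, ACV and Larynx neurons and no count in 46 of 98 ACV neurons. The log2 fold of its means was at the 2-fold mark for ACP over ACV and -1.22 for ACV over Larynx. Exons of Syn3 overlap Timp3 on the opposite strand over 1733 bases, so its counts are uncertain. Syn1 took 78.6% ± 13.3, 69.9% ± 17.7 and 71.4% ± 14.96 of the synapsin genes per kilobase. Syp, the vesicle membrane protein synaptophysin, had means of 719 ± 520.3, 449.9 ± 269.8 and 552 ± 345.4 CPM, and Snap91, a clathrin adaptor of vesicle recycling, 418.5 ± 175.3, 377.8 ± 183.1 and 395.5 ± 210.6 CPM.

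**Figure D5:**
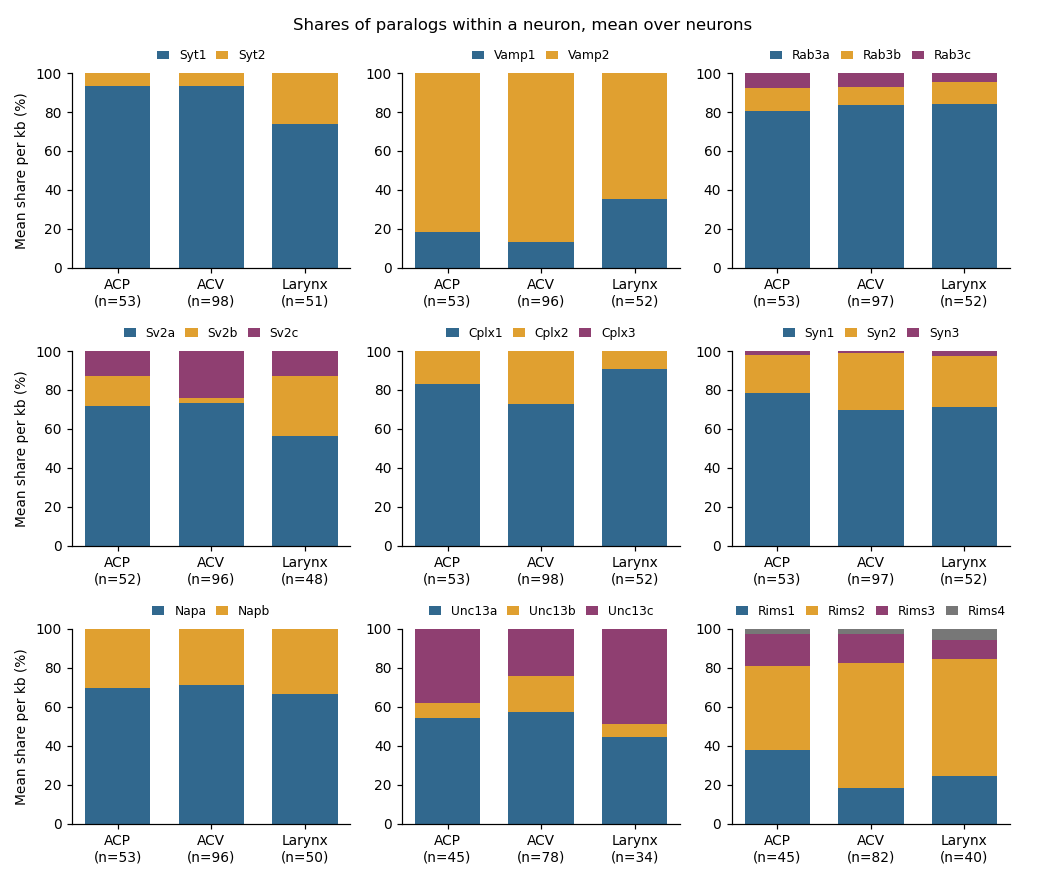
Mean share of each paralog (percent of its family per kilobase of exon, bars from 0 to 100) within neurons of each type having at least 20 counts on the family, with the number of neurons under each bar. Shares of Syt2, Vamp1 and Sv2b are highest in Larynx neurons (26%, 35.2% and 30.8%), Cplx2 and Sv2c take most in ACV neurons (27.1% and 24.1%), and the Rab3 and Napa and Napb families are level.

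Rab3 GTPases were within 2-fold in every comparison, while their effectors Rims1 and Rims2 each passed 2-fold in 1 of them. Rab3a had means of 772.5 ± 325.3, 786.4 ± 337 and 742 ± 325.1 CPM in ACP, ACV and Larynx neurons, and the share of pairs was between 48.02% and 55.8% in every comparison. Rab3b (178.6, 131.8 and 155.5 CPM) was within 2-fold as well. Rab3c was lower in Larynx (median 160.4 CPM) than in ACP (330.1 CPM) and ACV neurons (308.3 CPM), with the cardiac neuron higher in 72.7% and 69.7% of pairs and log2 folds of 0.68 and 0.55. Rab3a kept 80.7%, 83.5% and 84.3% of the 3 genes per kilobase. Rph3a, the effector rabphilin, had a median of 225.3 CPM in Larynx and 86.5 CPM in ACP neurons, with means within 2-fold. Of the RIM genes, which link Rab3 to the active zone, Rims1 was lower in ACV (mean 16.3 CPM, median 3.55) than in ACP (29.95 and 17.2 CPM). Rims2 was lower in ACP (43.3 CPM) than in ACV (79.8 CPM) and Larynx neurons (89.8 CPM). Rims3 (11.4, 15.02 and 8.23 CPM) and Rims4 (1.57, 1.08 and 3.08 CPM in ACP, ACV and Larynx) were sparse. The Rims1 mean of 34.4 CPM in Larynx came to 27.6% from 1 neuron, and only 53.9% of its pairs with ACV were higher in Larynx. Rims1 took 37.8% ± 25.5 of the RIM genes per kilobase in ACP (n = 45), 18.3% ± 24.02 in ACV (n = 82) and 24.5% ± 29.6 in Larynx neurons (n = 40).

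At the active zone, Munc13 proteins prime vesicles and Bassoon, Piccolo and ELKS form the scaffold. Unc13a, the main neuronal gene, had means of 69.8, 53.8 and 58.7 CPM in ACP, ACV and Larynx neurons. Unc13c, known from the cerebellum, had means of 37.5, 20.5 and 60.6 CPM and no count in 41 of 98 ACV neurons, with a log2 fold of -1.52 for ACV over Larynx that held under all 16 alternatives (-3.17 to -1.07). Still, only 63.4% of pairs were higher in Larynx. Unc13b was over 2-fold higher in ACV by means (33.5 CPM, against 11.3 CPM in ACP and 15.1 CPM in Larynx), but its median was 0 in each type and 1 neuron held 18.8% of the ACV sum. Bsn was the same in the 3 types (68.1, 69.2 and 71.9 CPM), Pclo was within 2-fold (236.5, 189.1 and 272.4 CPM), and so was Erc2 (182.3, 190.3 and 119.2 CPM).

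Syt2, Vamp1 and Sv2b were also counted together, as a description, since they were picked for being higher in Larynx. With marks at 100 CPM for Syt2 and Sv2b and 300 CPM for Vamp1, set after the values were seen, 16 of 52 Larynx neurons were above all 3, against 2 of 53 ACP and 0 of 98 ACV neurons. Conversely, 7 of 52 Larynx, 26 of 53 ACP and 70 of 98 ACV neurons were above none. Among laryngeal neurons Syt2 went with Syt11 (rho = 0.74) and Syt1 (0.57), and Vamp1 with Cplx1 (0.56), while Syt2 and Vamp1 had a rho of 0.06. These correlations are over the neurons of a type, which share depth and composition, and are descriptions only. Over 630 pairs of members found in 50% or more of every type's neurons the median rho was 0.06 in ACP, 0.07 in ACV and 0.00 in Larynx neurons. Syt1 with Syt11 was the only pair above 0.5 in every type (0.68, 0.52 and 0.58). Rab3a went against Pclo in every type (-0.32, -0.54 and -0.50) and against Unc13a (-0.31, -0.30 and -0.36), the only pairs below -0.3 in all 3. These pair a short transcript (2226 bases of exon in Rab3a) with long ones (22457 bases in Pclo and 12623 in Unc13a), and the part of transcript length was not tested.

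Laryngeal neurons also had a higher summed level of the non-cholinergic neuron markers and more Rn45s. Differences from Larynx are also given, as a description, for subsets chosen after the data were seen. In neurons with at most 10 CPM of Gad1, Gad2, Slc32a1 and Slc6a5 together (20 ACP, 49 ACV and 16 Larynx), the log2 fold of ACV over Larynx was -2.16 for Syt2, -1.81 for Vamp1, -5.04 for Sv2b and 1.77 for Cplx2, against -2.18, -1.65, -3.90 and 1.32 in all neurons. In neurons with 30 to 60% of counts on Rn45s (36 ACP, 53 ACV and 26 Larynx) the values were -2.63, -1.81, -4.41 and 1.52. ACP over Larynx gave -2.42 for Syt2, -1.45 for Vamp1 and 2.13 for Syt5 in the first subset and -2.44, -1.34 and 1.70 in the second. Within Larynx neurons the rho with the summed non-cholinergic markers was -0.21 for Syt2, -0.12 for Vamp1 and 0.08 for Sv2b. Other differences shrank below 2-fold in a subset. Syt7 in ACV over Larynx was -0.49 in the first and -1.58 in the second, and Syt5 in ACV over Larynx was 1.62 and 0.89. The first subset sets no limit on Slc17a6, and the part of RNA from other neurons or of Rn45s in these differences was not tested.

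Further release genes were read from lists apart from the members. Between the cardiac types, 2 of 23 SNAREs and SNARE partners and 1 of 10 other calcium sensors were over 2-fold higher in ACV, 1 of 26 active zone genes was higher in ACP, and of 23 vesicle membrane genes 1 was higher in each. Between ACP and Larynx, 1 of the SNARE list, 3 of the calcium sensors, 2 of the vesicle membrane list and 3 of the active zone list were higher in Larynx, and 2 vesicle membrane genes and 1 active zone gene in ACP. Between ACV and Larynx the 4 lists held 1, 5, 1 and 3 genes higher in Larynx and 3, 2, 0 and 1 higher in ACV. Over all genes the shares were 7.55% (ACP over ACV), 6.31% (ACV over ACP), 8.09% (ACP over Larynx), 10.1% (Larynx over ACP), 7.87% (ACV over Larynx) and 11.8% (Larynx over ACV), and lists this short allow no reading against them. Cask, a scaffold kinase that binds neurexin, was over 2-fold higher in both cardiac types, with means of 343.1 ± 290.9 CPM in ACP, 324.7 ± 185.1 CPM in ACV and 116.4 ± 114.9 CPM in Larynx neurons. Its binding partner Lin7a went the other way (16.8, 18.7 and 85.4 CPM), as did Syt12 (15.4, 14.3 and 59.2 CPM) and Otof, the calcium sensor otoferlin of hair cells (9.10, 4.69 and 37.7 CPM, with counts in 21 of 52 Larynx neurons). Stxbp2, or Munc18-2, was highest in ACV neurons (149.2 CPM, against 42.1 CPM in ACP and 46.96 CPM in Larynx), and so was the SNARE Stx2 (42.03, 24.1 and 11.97 CPM in ACV, ACP and Larynx). Of the vesicle transporters, Slc18a3, which loads acetylcholine, had means of 1035, 690.3 and 1501 CPM in ACP, ACV and Larynx neurons, and Slc18a2, which loads monoamines, 69.1, 20.4 and 25.5 CPM. Slc17a6, which loads glutamate, was lower in ACP (30.9 CPM) than in ACV (75.5 CPM) and Larynx neurons (147.3 CPM). It is also 1 of the 6 non-cholinergic markers above. Of the endocytosis genes, 0 of 27 were over 2-fold apart between the cardiac types, 1 of 27 (Synj2) was higher in Larynx than ACP, and 0 of the 26 compared were apart between ACV and Larynx. Synj2 had counts in too few neurons to be compared there. Esyt3, Vamp8, Cadps2 and Stxbp6, also past 2-fold in a comparison, had means of at most 20.1 CPM in any type.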

How the data were processed

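Reads of single neurons (Smart-seq2) had been trimmed, aligned to mm10 with STAR 2.6.1d and counted per gene by the authors. The counting program and annotation are not given in the sources used here. The deposited counts were used as whole, unnormalized numbers, with the deposited neuron types. The deposited normalized table was not used, since its columns sum to between 242376 and 3031764. The study states an upper limit of Apoe counts per neuron, and in the deposited counts 39 neurons (11 ACP and 28 ACV) lie above that number. The limit may refer to counts on another scale, and all neurons were kept. Levels are counts per 1000000 counts outside Rn45s. Genes with a count in 10% or more of either type's neurons were compared, by the log2 ratio of means plus 1 CPM against 2-fold. Poisson 95% intervals cover counting error only, and Clopper-Pearson 95% intervals the number of neurons only. No significance test was run, since a type is 1 sample. Paralog shares divide counts by exon length (GENCODE vM21) in neurons with at least 20 counts on the family. Size factors for alternatives came from edgeR 4.0.16 and DESeq2 1.42.0 in R 4.3.3, and other steps used Python 3.11.15 with scipy 1.17.1. The code for the ratio was checked on simulated counts with known folds. Named genes are members past 2-fold, members of the paralog families, Snap25, and other release genes past 2-fold of at least 5 CPM, at most 6 a comparison by size, with further genes of those lists named after their values were seen. Members and lists were chosen with earlier results of these data known.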

Additional observations from a re-analysis of the deposited data

How the results depend on the processing

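Calls of over 2-fold that held under all 16 alternatives were Sv2b in ACP over ACV, Syt2, Syt4 and Syt5 in ACP over Larynx, and Vamp1, Syt2, Cplx2, Sv2b and Unc13c in ACV over Larynx. Other calls were lost under 1 or more, and where no construction is named the cause was not tested. A 1.5-fold mark, no detection filter and a 0.1 CPM pseudocount are among the 16 and cannot undo a call. The alternatives by inhibitory markers, Rn45s band, neuron pairs and transcript length (for shares and for the order of levels) were chosen after seeing the data. Neurons are not tied to mice, and depth limits members under 10 CPM. No paired analysis was possible because no source names the mouse of a neuron, and no test was run.

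The number of members higher in ACP than ACV (4) was 1 with a pseudocount of 5 CPM, 8 at 1.5-fold and 1 by 75% of pairs. Among all genes the share was 7.55% in the main setting and 3.65%, 16.5% and 0.636% in these. The number higher in ACV than ACP (2) was 1 with Rn45s in the totals, with summed counts, with a pseudocount of 5, with a 25% detection filter and at 30 to 60% Rn45s, 4 at up to 900 Apoe counts, 0 at 500000 counts or more, 8 at 1.5-fold, 5 with few inhibitory marker counts and 0 by pairs. Its share of all genes (6.31%) was, in the same order, 4.12%, 5.02%, 2.47%, 4.03%, 9.61%, 9.7%, 5.57%, 13.7%, 13.8% and 0.329%. The number higher in ACP than Larynx (2) was 7 with Rn45s in the totals, 5 by medians, 4 by mean log2 levels and 6 at 1.5-fold. For all genes 8.09% became 19.6%, 15.4%, 8.89% and 17.85%. The number higher in Larynx than ACP (6) was 1 with Rn45s, 3 with a pseudocount of 5, 12 at 1.5-fold, 10 with few inhibitory marker counts and 2 by pairs. Here the 10.1% of all genes became 3.02%, 5.12%, 20.3%, 17.7% and 0.445%. The number higher in ACV than Larynx (3) was 10 with Rn45s, 6 by medians, 8 by mean log2 levels, 1 with a pseudocount of 5, at 500000 counts or more and at 30 to 60% Rn45s, 8 at 1.5-fold and 6 with few inhibitory marker counts. Of all genes 7.87% were called, and in the same order 18.5%, 14.3%, 8.22%, 3.46%, 8.96%, 13.2%, 18.2% and 18.55%. The number higher in Larynx than ACV (7) was 4 with Rn45s and 12 at 1.5-fold, while the 11.8% of all genes became 4.52% and 22.98%. It was 10 with few inhibitory marker counts and at 30 to 60% Rn45s. By medians and at up to 900 Apoe counts it was 9, and by pairs 5. The share of all genes was then, in the same order, 15.1%, 14.1%, 9.63%, 16.2% and 0.955%. Some settings not named here also moved these counts. Member counts thus moved along with the share of all genes in many settings.

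The summed level was 7275, 7369 and 4867 CPM in ACP, ACV and Larynx with Rn45s in the totals. Without division by length, the share of Vamp1 was 54.99% in Larynx, of Rab3c 27.73%, 26.01% and 17.39% in ACP, ACV and Larynx, of Cplx1 70.62% in ACP, and of Syn1 63.77% in ACP and 54.45% in Larynx. Members with 5 or more counts numbered 31.25 in ACP and 31.31 in Larynx on average. Folds past 2-fold that changed sign, or folds within 2-fold that passed it in the other direction, were Syt6 in ACP over ACV (0.99 at up to 900 Apoe counts), Syt10 in ACP over ACV (-0.31 with few inhibitory marker counts), Syt6 in ACP and ACV over Larynx (0.01 and 1.69 with few such counts), and, by medians, Doc2a in ACP over Larynx (1.26) and Syt9 in ACV over Larynx (1.02).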
